A study of Mus musculus with 6 samples.

Results

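The type I interferon response genes described here are 39 genes induced by interferon or named for it, chosen by symbol from a list and found in the deposited tables among 54532 gene identifiers. All 39 symbols were present and all 39 passed the filter on low counts, out of 17042 genes that passed. They comprise 8 sensors of foreign or misplaced nucleic acid, 5 transcription factors, and 26 effectors and regulators. The genes were measured by RNA sequencing of cortex in 6 libraries, 3 from cell-treated and 3 from control mice. All mice were 5XFAD, an amyloid-forming line in which Thy1 regulatory sequence drives mutant human transgenes of inherited Alzheimer's disease in neurons. The cell-treated mice had received cells that the series title names as GABAergic interneurons, an inhibitory class of neuron, derived from human induced pluripotent stem cells; the controls carry the treatment label NC and had no such therapy. Whether controls were sham-injected, and the age, sex and strain background of the mice, are not given in the sources used here. Among the deposited columns 3 are named AD and 3 treated, and those named AD were taken as the controls by inference, so that every sign reported here rests on that reading. Per the design text each group had 3 biological replicates, although it calls the treated mice the controls.

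Cells that detect viral nucleic acid or their own DNA in the wrong place secrete type I interferons, which bind the Ifnar1 and Ifnar2 receptor on the same and neighbouring cells. The receptor's kinases phosphorylate Stat proteins, Stat2 among them, which join Irf9 and bind a promoter element, the interferon-stimulated response element, in front of the response genes. Irf7, itself one of these genes, amplifies the production of interferon. In brain the response is made by microglia, astrocytes, neurons and vessels, and in amyloid models it has been described in a fraction of microglia.

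The promoter element is shown first because it is what many of these genes are known to share. Promoter sequence (RefSeq, assembly GRCm38.p6, from 250 bases before to 50 after a transcription start) was at hand for 30 of the 39 genes, in 36 windows. The core GAAANNGAAA, searched on both strands and so also as TTTCNNTTTC, was found for 17 of these 30 genes (56.7%), against 3.99% of 27025 mouse genes with a window. The Stat-dimer core TTCNNNGAA, which reads the same on both strands, was found for 8 of 30 genes (26.7%), against 9.55% of all genes. A match is a description of letters and not a mapped site. The bases upstream of the start of 5 genes, selected after their values were seen, are given 5′ to 3′ on the coding strand, with the core and its overlapping repeats in capitals. Isg15 and Ifit1 were among the genes that stood highest in one library, Ifit3 and Ifit3b are near-copies whose values went apart, and Cmpk2, whose window holds no such core, had the lowest value of the 6 in the library where most others had the highest.
Isg15, chr4:156200819-156201068, minus strand: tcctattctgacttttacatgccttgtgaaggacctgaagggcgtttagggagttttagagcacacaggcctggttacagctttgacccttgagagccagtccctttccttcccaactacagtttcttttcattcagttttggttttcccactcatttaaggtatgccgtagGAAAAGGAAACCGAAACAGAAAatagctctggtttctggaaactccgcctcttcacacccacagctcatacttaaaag
Ifit1, chr19:34640639-34640888, plus strand: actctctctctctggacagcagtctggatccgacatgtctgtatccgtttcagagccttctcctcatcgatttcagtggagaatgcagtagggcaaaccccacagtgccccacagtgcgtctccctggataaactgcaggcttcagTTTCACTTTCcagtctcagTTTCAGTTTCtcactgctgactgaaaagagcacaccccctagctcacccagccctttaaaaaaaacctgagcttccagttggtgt
Ifit3, chr19:34583279-34583528, plus strand: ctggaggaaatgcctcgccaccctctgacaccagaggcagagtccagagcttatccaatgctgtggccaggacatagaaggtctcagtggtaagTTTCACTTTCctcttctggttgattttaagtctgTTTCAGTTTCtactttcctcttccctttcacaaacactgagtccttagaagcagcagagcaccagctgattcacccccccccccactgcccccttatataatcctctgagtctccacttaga
Ifit3b, chr19:34607707-34607956, plus strand: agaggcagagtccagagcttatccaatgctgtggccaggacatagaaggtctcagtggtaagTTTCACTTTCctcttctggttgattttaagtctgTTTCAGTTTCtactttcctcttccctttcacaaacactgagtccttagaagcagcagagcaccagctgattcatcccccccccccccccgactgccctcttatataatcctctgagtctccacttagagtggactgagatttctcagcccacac
Cmpk2, chr12:26468965-26469214, plus strand: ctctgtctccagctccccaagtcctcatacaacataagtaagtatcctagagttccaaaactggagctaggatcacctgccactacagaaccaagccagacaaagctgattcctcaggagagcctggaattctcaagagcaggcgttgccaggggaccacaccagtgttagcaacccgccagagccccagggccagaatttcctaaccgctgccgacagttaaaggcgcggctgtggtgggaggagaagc
In Isg15 the 3 matches overlap, starting 78, 72 and 66 bases before the start site. In Ifit1 they begin 104 and 85 bases before it. Ifit3 holds the same pair of letter strings as Ifit3b, at 156 and 122 bases against 188 and 154, and the printed windows share an unbroken run of 169 bases, offset by 32.

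Across the cortex of these mice, interferon response genes were present at low to moderate levels in every library, and 1 library carried the highest value of most of them. Cell-treated library 3 held the highest of the 6 values for 35 of 39 genes, against 28.7% of all genes tested. The summed level of the 39 genes was 411, 480 and 999 CPM (counts scaled to library size) in cell-treated libraries 1, 2 and 3, against 533, 521 and 431 CPM in control libraries 1, 2 and 3. Cell-treated library 3 thus had the highest sum and cell-treated library 1 the lowest, with the 3 controls between them. The groups overlapped for every gene: 0 of 39 had all cell-treated values above all control values, and 0 had them all below, against 4.30% of all genes tested in each direction.

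**Figure D1:**
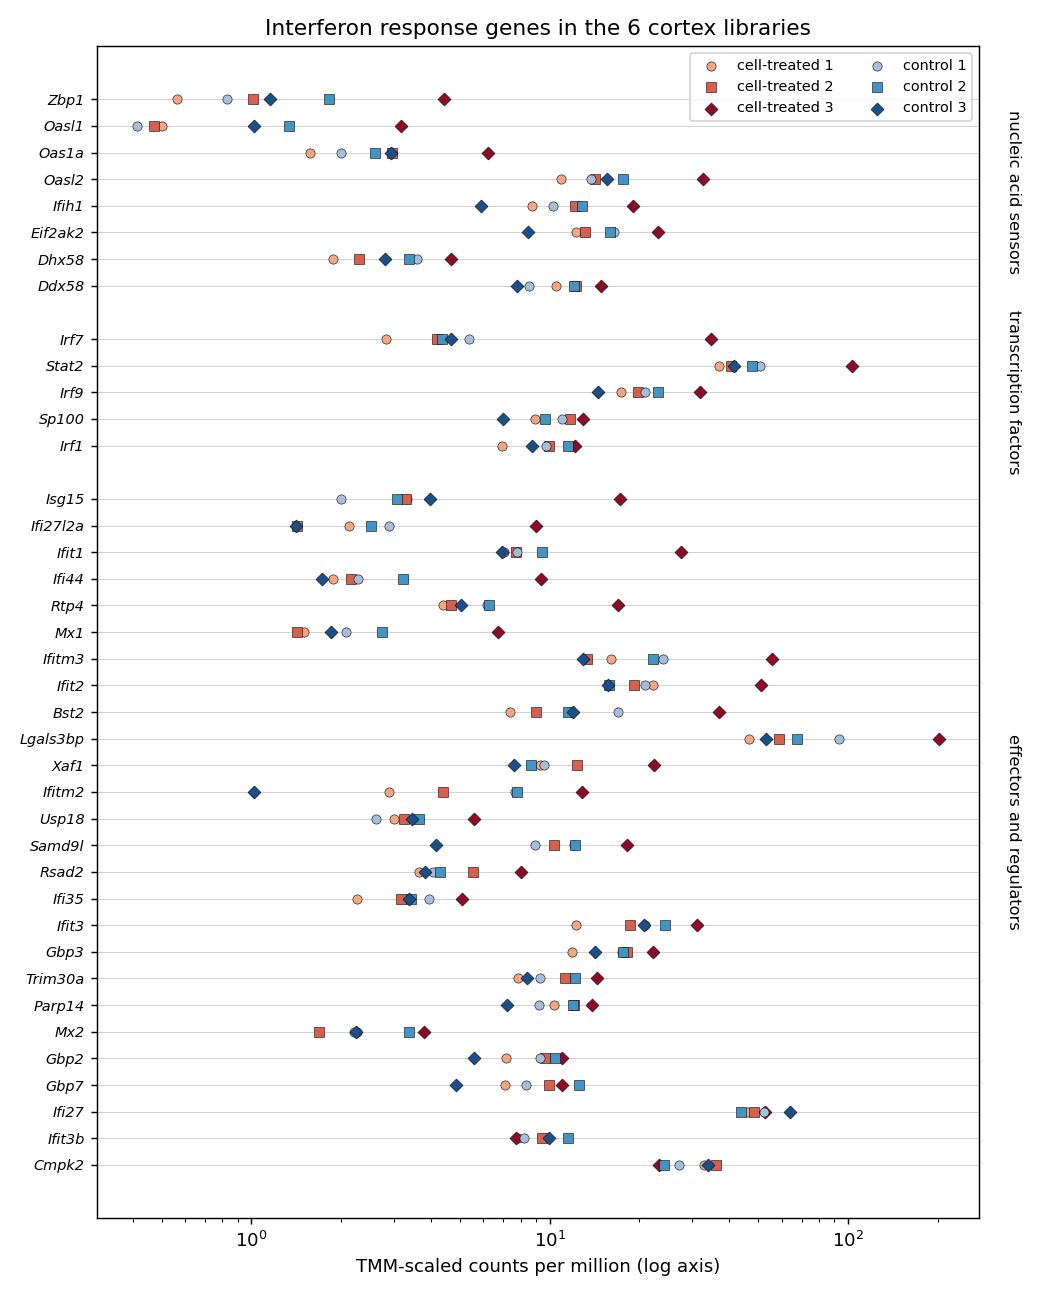
Levels of the 39 interferon response genes in each library, as TMM-scaled CPM on a log axis, ordered by role. Points of cell-treated library 3 lie at the right end of most lines. In the other 5 libraries the groups overlap on most lines. The lowest point is cell-treated library 1 for 15 genes and control library 3 for 16, against 12.8 and 16.7% of all genes tested.

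None of the 39 genes passed the test between the groups. With edgeR's quasi-likelihood test 0 of 39 were called at an adjusted p under 0.05, as were 0 of all genes tested (0%), and Xaf1, with the smallest p of the 39, had an adjusted p of 0.999. In edgeR 0 of 39 had an unadjusted p under 0.05, against 2.0% of all genes. DESeq2 placed 3 there, Isg15, Ifit2 and Xaf1, against 1.34% of the 32739 genes with a p. That share includes genes that failed the low-count filter, which all 39 passed, so it is not on the footing of the edgeR share. DESeq2 called 0 of the 38 that it gave a p, and Irf7 had none there. Each of limma voom and limma on the deposited FPKM values called 0 of 39. By direction alone, 32 of 39 fitted values were higher and 7 lower in cell-treated libraries, against 50.2% higher over all genes, with a median log2 fold change of 0.37 beside 0.0013 for all genes. That direction rested on cell-treated library 3: without it, 10 were higher and 29 lower, against 47.4% higher over all genes, and the median was -0.18 beside -0.018. The other 2 cell-treated libraries both lay below every control for 8 of the 39 genes, against 11.1% of all genes, and above every control for 0, against 11.3%. In bulk tissue, fewer cells of a type and less RNA per cell cannot be told apart.

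**Figure D2:**
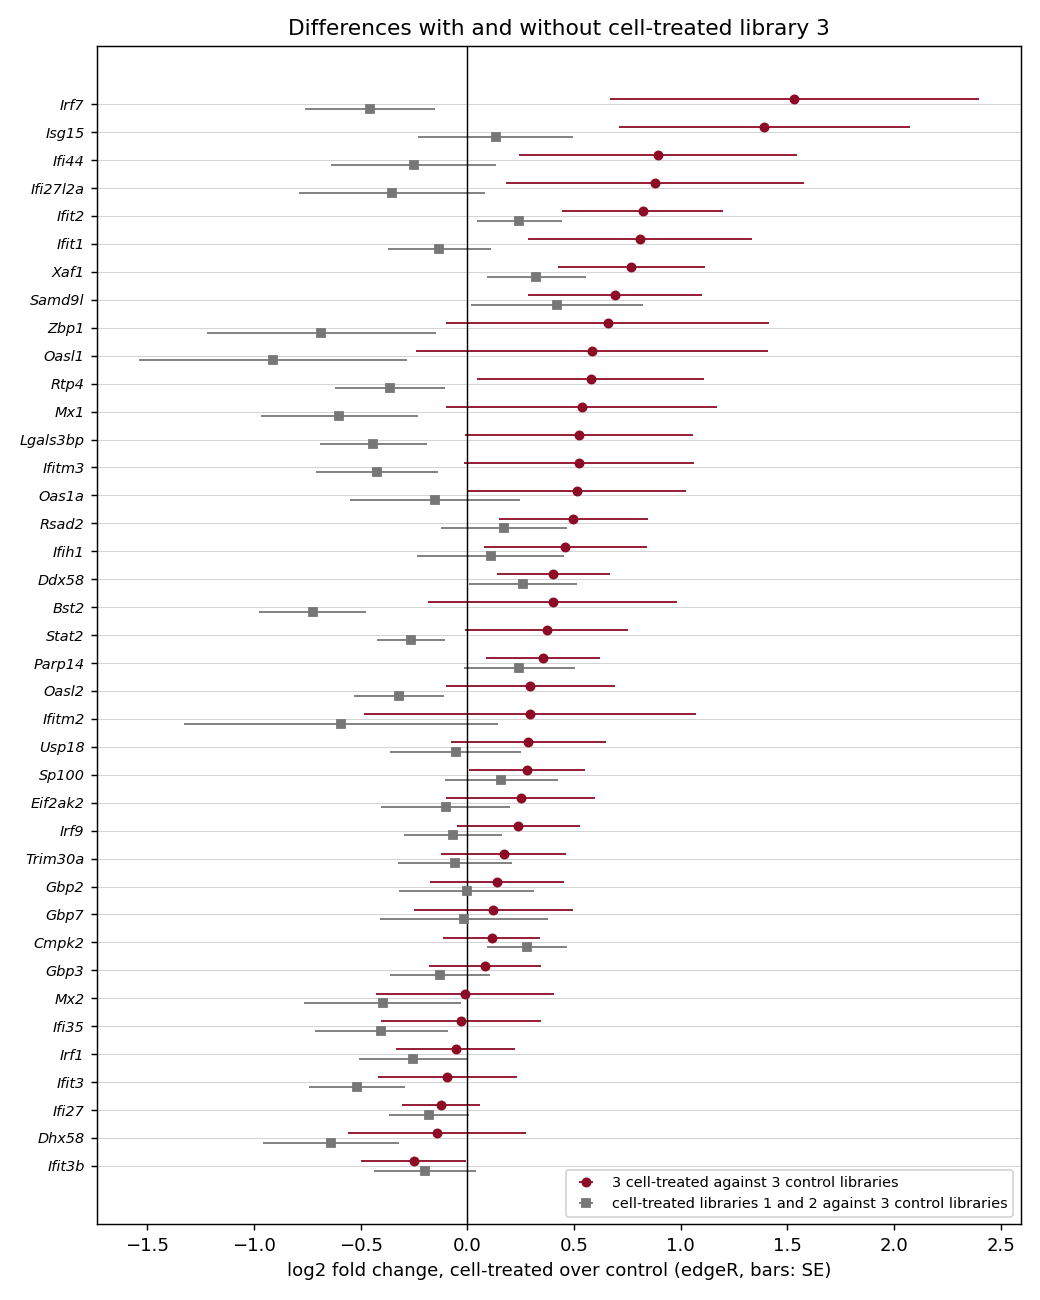
Log2 fold change of each interferon response gene, cell-treated over control, from edgeR with all 6 libraries (red) and without cell-treated library 3 (grey), with bars of 1 standard error. Most red points lie right of 0 and most grey points left of it, and 22 genes changed from higher to lower.

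The 8 sensors were each highest in cell-treated library 3, and 7 of 8 fitted values were higher in cell-treated libraries, with a median of 0.43; without that library 2 were higher with a median of -0.24. Ddx58, which encodes the viral RNA helicase RIG-I (chr4:40203773-40239828), was at 10.5, 12.2 and 14.9 CPM in cell-treated libraries 1, 2 and 3, against 8.56, 12.1 and 7.80 CPM in control libraries 1, 2 and 3. Its log2 fold change was 0.40 ± 0.264 (SE; unadjusted p = 0.166), and it stayed above 0 without cell-treated library 3, at 0.26. The ranges overlapped, with control library 2 between cell-treated libraries 1 and 2. Ifih1, encoding MDA5, the helicase for longer viral RNA, was at 8.72, 12.2 and 19.0 CPM in cell-treated libraries, against 10.3, 12.8 and 5.88 CPM in controls. Cell-treated library 3 was the high end and control library 3 the low end, and the log2 fold change was 0.46 ± 0.382. Dhx58, encoding LGP2, a helicase that tunes both, was at 1.88, 2.30 and 4.66 CPM in cell-treated libraries, against 3.59, 3.37 and 2.81 CPM in controls. It was the only sensor with a lower fitted value, -0.14 ± 0.416, and 2 of its 3 cell-treated values lay under all controls.

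Of the other sensors, Zbp1, a detector of Z-form nucleic acid that can trigger cell death, was at 0.565, 1.01 and 4.42 CPM in cell-treated libraries, against 0.828, 1.82 and 1.15 CPM in controls. Oasl1, an oligoadenylate synthetase-like protein, was at 0.502, 0.473 and 3.17 CPM, against 0.414, 1.33 and 1.02 CPM in controls, and its smallest count was 6 reads. Both were low genes in which cell-treated library 3 alone stood out, at 2.42 and 2.38 times the next library. Oasl2, a paralogue of it, was at 10.9, 14.3 and 32.6 CPM in cell-treated libraries, against 13.8, 17.7 and 15.6 CPM in controls, and its log2 fold change of 0.30 ± 0.395 was -0.32 without cell-treated library 3. Oas1a, an oligoadenylate synthetase that activates RNase L, was at 1.57, 2.97 and 6.22 CPM in cell-treated libraries, against 2.0, 2.59 and 2.94 CPM in controls. Its transcripts share 57.6% of their 50-base words with other genes, chiefly Oas1g, which makes its read count uncertain. Eif2ak2, encoding PKR, a kinase that stops translation on double-stranded RNA, was at 12.2, 13.2 and 23.1 CPM in cell-treated libraries, against 16.5, 15.9 and 8.44 CPM in controls. Its highest value was thus a cell-treated one and its lowest a control one, with the other 4 between.

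The 5 transcription factors were also each highest in cell-treated library 3, and no other gene of the 39 stood as far out there as Irf7. Irf7 (ENSMUSG00000025498, chr7:141262706-141266481) was at 2.82, 4.19 and 34.6 CPM in cell-treated libraries 1, 2 and 3, against 5.39, 4.35 and 4.67 CPM in control libraries 1, 2 and 3. Cell-treated library 3 was 6.43 times the next library, and the other 2 cell-treated libraries were the lowest of the 6. The fitted log2 fold change was 1.53 ± 0.864 (SE; unadjusted p = 0.115), and it was -0.46 without cell-treated library 3. Stat2, a Stat protein that joins Irf9 in the interferon-activated complex, was at 36.9, 40.7 and 103 CPM in cell-treated libraries, against 50.6, 47.8 and 41.4 CPM in controls. It repeated that order at a higher level, with 1 cell-treated value 2.04 times the next and the others under all controls. Its log2 fold change was 0.37 ± 0.381, and -0.26 without that library.

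Irf9, the DNA-binding partner of Stat2, was at 17.4, 19.9 and 31.9 CPM in cell-treated libraries, against 20.9, 23.1 and 14.6 CPM in controls, a log2 fold change of 0.24 ± 0.290. Sp100, a nuclear-body protein that restricts viral genomes, was at 8.91, 11.7 and 12.9 CPM in cell-treated libraries, against 11, 9.68 and 6.97 CPM in controls. Irf1, which is induced by interferon gamma as well, was at 6.90, 9.93 and 12.1 CPM in cell-treated libraries, against 9.73, 11.6 and 8.76 CPM in controls. In Sp100 and Irf1 the highest value exceeded the next by 1.11 and 1.05 times, so that cell-treated library 3 was highest without standing apart, and the log2 fold changes were 0.28 ± 0.270 and -0.05 ± 0.278. Over the 5 factors, 4 were higher and the median was 0.28; 1 was higher, with a median of -0.25, once cell-treated library 3 was left out.

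Among the 26 effectors and regulators, 21 had higher and 5 lower fitted values, with a median of 0.38, and 22 were highest in cell-treated library 3. Without it 7 were higher and the median was -0.15. Those with the smallest p came closest to a difference of the groups. Xaf1, a regulator of cell death (chr11:72301629-72313733), was at 9.28, 12.4 and 22.5 CPM in cell-treated libraries, against 9.60, 8.69 and 7.61 CPM in controls. Only cell-treated library 1 fell among the controls, and the log2 fold change was 0.77 ± 0.345 (SE; unadjusted p = 0.0569), with 0.32 when cell-treated library 3 was left out. Ifit2, an inhibitor of viral translation (chr19:34550694-34576419), was at 22.3, 19.1 and 51.2 CPM in cell-treated libraries, against 20.9, 15.8 and 15.7 CPM in controls. Control library 1 lay between the cell-treated values, and the log2 fold change of 0.82 ± 0.378 (unadjusted p = 0.0615) became 0.24.

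Isg15, a ubiquitin-like protein that is joined to other proteins or secreted (ENSMUSG00000035692, chr4:156199424-156200818), was at 3.32, 3.31 and 17.2 CPM in cell-treated libraries, against 2.0, 3.09 and 3.96 CPM in controls. Cell-treated library 3 was 4.33 times the next library, which was a control. The log2 fold change was 1.39 ± 0.683 (unadjusted p = 0.0764), and 0.13 ± 0.363 without cell-treated library 3. Its promoter is the one shown with 3 overlapping cores. Ifit1, which binds viral RNA caps (chr19:34640871-34650009), was at 7.03, 7.70 and 27.6 CPM in cell-treated libraries, against 7.80, 9.47 and 6.90 CPM in controls, a log2 fold change of 0.81 ± 0.526, or -0.13 without cell-treated library 3. The other 5 libraries spanned a narrow range, with both groups mixed in it.

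Of the remaining effectors with small p, Samd9l, a translation repressor, was at 12.1, 10.3 and 18.2 CPM in cell-treated libraries, against 8.91, 12.1 and 4.15 CPM in controls. Rsad2, viperin, which makes a chain-terminating nucleotide, was at 3.64, 5.54 and 8.02 CPM in cell-treated libraries, against 4.07, 4.28 and 3.84 CPM in controls. Parp14, an ADP-ribosyltransferase, was at 10.3, 12.1 and 13.9 CPM in cell-treated libraries, against 9.18, 12 and 7.22 CPM in controls. In these 3 genes a step between cell-treated library 3 and the rest was small, at 1.5, 1.45 and 1.15 times, and the log2 fold changes of 0.69 ± 0.409, 0.50 ± 0.349 and 0.36 ± 0.265 stayed above 0 without it, at 0.42, 0.17 and 0.24. Ifi44, an interferon-induced cytoplasmic protein, was at 1.88, 2.16 and 9.39 CPM in cell-treated libraries, against 2.28, 3.23 and 1.73 CPM in controls. Ifi27l2a, a small hydrophobic membrane protein, was at 2.13, 1.42 and 9.02 CPM in cell-treated libraries, against 2.90, 2.52 and 1.41 CPM in controls. Rtp4, a chaperone of receptor transport, was at 4.39, 4.66 and 17 CPM in cell-treated libraries, against 6.14, 6.24 and 5.05 CPM in controls. For these 3 the log2 fold changes of 0.90, 0.88 and 0.58 turned to -0.25, -0.35 and -0.36 without cell-treated library 3, which stood 2.91, 3.11 and 2.72 times above the next.

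By level per transcript length, in the FPKM (fragments per kilobase of gene, scaled to library size) that the authors deposited, Ifitm3, Ifi27 and Lgals3bp were the most abundant of the 39. Ifitm3, a membrane protein that blocks virus entry, averaged 42.0 ± 35.3 FPKM in cell-treated libraries and 28.8 ± 8.67 FPKM in controls (SD, n = 3 each). In CPM it was at 16.1, 13.3 and 55.5 in cell-treated libraries, against 24.0, 22.2 and 12.9 in controls. Lgals3bp, a secreted binding partner of galectin-3, averaged 36.3 ± 30.9 FPKM in cell-treated libraries and 24.9 ± 7.04 FPKM in controls (SD, n = 3 each), with 46.5, 58.9 and 203 CPM against 93.5, 67.6 and 53.2 CPM. Both had a spread among the cell-treated libraries larger than the difference of the means, and both turned from a log2 fold change of 0.52 to -0.42 and -0.44 without cell-treated library 3. Ifi27, a mitochondrial protein, averaged 33.5 ± 2.52 FPKM in cell-treated libraries and 36.1 ± 6.81 FPKM in controls (SD, n = 3 each). It was at 46.0, 48.5 and 52.6 CPM in cell-treated libraries, against 52.4, 43.8 and 64.0 CPM in controls, and was the 1 gene of the 39 that was highest in control library 3. The least abundant genes per length were Oasl1, with 0.534 FPKM in cell-treated libraries and 0.352 FPKM in controls on average, and Zbp1, with 0.570 and 0.357 FPKM.

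A step of at least 2-fold between cell-treated library 3 and the next library was present in 15 of 39 genes, against 2.43% of all genes tested. These were 3 sensors (Zbp1, Oasl1 and Oas1a), 2 transcription factors (Irf7 and Stat2) and 10 effectors (Isg15, Ifi27l2a, Ifit1, Ifi44, Rtp4, Mx1, Ifitm3, Ifit2, Bst2 and Lgals3bp). For Irf7, Isg15 and Ifi27l2a it was at least 3-fold, and the median over the 39 genes was 1.5. Bst2, tetherin, which holds budding virus at the membrane, is named here after its values were seen. It was at 7.34, 8.98 and 37.0 CPM in cell-treated libraries, against 16.9, 11.6 and 12 CPM in controls, so its cell-treated values held both the highest and the 2 lowest of the 6. Its log2 fold change was 0.40 ± 0.585 with all libraries and -0.72 ± 0.251 without cell-treated library 3 (unadjusted p = 0.022, adjusted p = 0.914 in edgeR). It was the 1 gene of the 39 with an unadjusted p under 0.05 there, against 4.54% of all genes. The 8 genes with the first 2 cell-treated libraries under every control were Bst2, Irf7, Stat2, Dhx58, Ifit3, Rtp4, Mx1 and Ifi35.

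Not all genes of the response had their top value in that library. The 4 exceptions were Ifit3b, Gbp7, Ifi27 and Cmpk2, named after their values were seen. Cmpk2, a mitochondrial nucleotide kinase (chr12:26469204-26479837), was at 33.0, 36.1 and 23.2 CPM in cell-treated libraries, against 27.1, 24.3 and 33.9 CPM in controls. It was lowest in cell-treated library 3, at 0.643 of the highest other library, although Rsad2, its neighbour on the chromosome (chr12:26442746-26456452), was highest there. Ifit3 was at 12.2, 18.6 and 31.1 CPM in cell-treated libraries, against 20.9, 24.5 and 20.7 CPM in controls. Its near-copy Ifit3b was at 7.84, 9.46 and 7.71 CPM in cell-treated libraries, against 8.22, 11.6 and 9.97 CPM in controls, with the lowest value where Ifit3 had the highest. The 2 genes share 51.2% of the 50-base words of Ifit3 and 45.0% of those of Ifit3b, and how reads matching both were counted is unknown. The guanylate-binding proteins Gbp2, Gbp3 and Gbp7, GTPases that attack pathogen vacuoles, had ratios of 1.05, 1.22 and 0.877 between cell-treated library 3 and the highest other library.

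Like Bst2, Ifitm3, Lgals3bp, Ifi27, Ifit3 and Cmpk2 above, the other 9 effectors and regulators had fold changes within their standard errors. Mx1, a dynamin-like GTPase against RNA viruses, was at 1.51, 1.42 and 6.72 CPM in cell-treated libraries, against 2.07, 2.73 and 1.85 CPM in controls. Its paralogue Mx2, which the annotation lists as a polymorphic pseudogene, was at 2.26, 1.69 and 3.79 CPM in cell-treated libraries, against 2.21, 3.37 and 2.24 CPM in controls. Cell-treated library 3 was apart for Mx1, at 2.46 times the next library, and close to control library 2 for Mx2. Usp18, the protease that removes Isg15 and damps receptor signalling, was at 3.01, 3.24 and 5.6 CPM in cell-treated libraries, against 2.62, 3.65 and 3.45 CPM in controls. Ifi35, a leucine-zipper protein, was at 2.26, 3.17 and 5.10 CPM in cell-treated libraries, against 3.94, 3.44 and 3.39 CPM in controls. Ifitm2, a relative of Ifitm3 whose exons overlap another gene over 40.9% of their bases, was at 2.89, 4.39 and 12.9 CPM in cell-treated libraries, against 7.66, 7.78 and 1.02 CPM in controls. Its lowest value lay in control library 3, far under the other controls. Trim30a, a ubiquitin ligase, was at 7.84, 11.3 and 14.4 CPM in cell-treated libraries, against 9.25, 12.2 and 8.37 CPM in controls. The log2 fold changes of these 9 genes, Gbp2, Gbp3 and Gbp7 included, lay between -0.03 for Ifi35 and 0.54 for Mx1, each smaller than its standard error.

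The step in cell-treated library 3 was seen in genes with and without a match to the interferon-stimulated core in the promoter window. Among the 17 genes with the core, the ratio of cell-treated library 3 to the highest other library ran from 0.667 to 4.33 with a median of 1.45, and 6 reached 2. Among the 13 genes with a window and no core it ran from 0.643 to 6.43 with a median of 1.82, and 5 reached 2. Irf7, with the highest ratio, and Cmpk2, with the lowest, were both in the set without it. The split rests on an exact string of letters in these windows, so a gene without a match cannot be said to lack the element. Whether the step depends on the element was not tested.

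**Figure D3:**
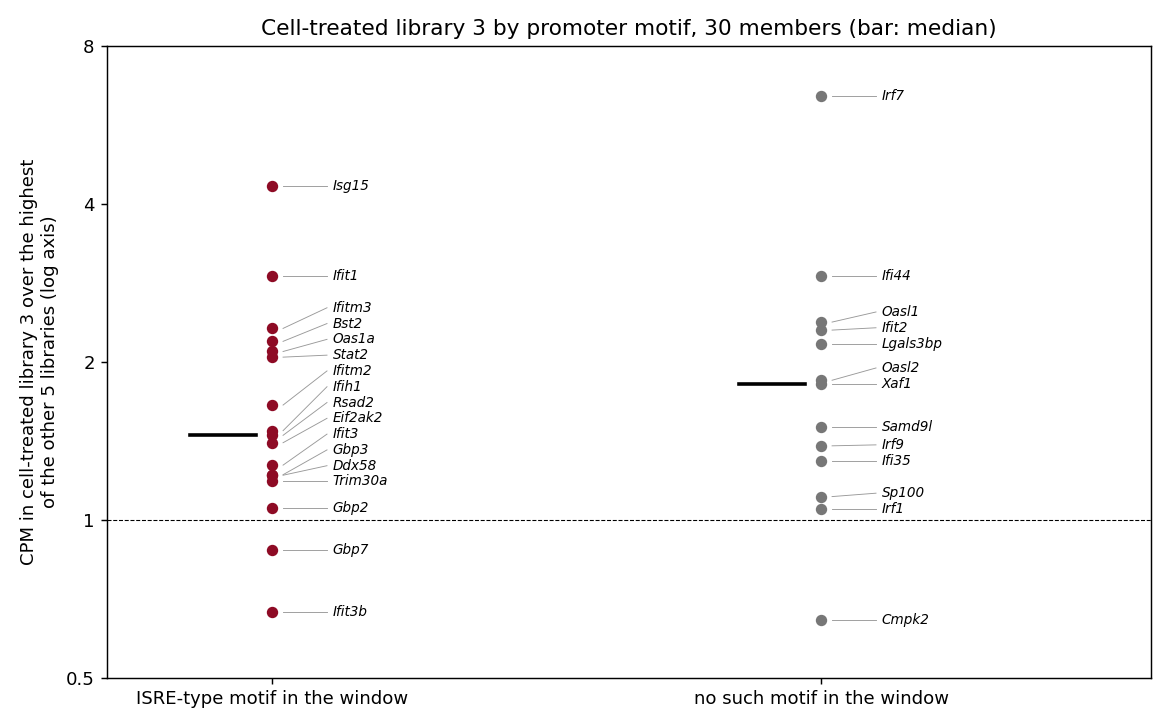
Ratio of the level in cell-treated library 3 to the highest of the other 5 libraries for the 30 interferon response genes with a promoter window, on a log axis, split by whether the window holds the core; bars are medians. The sets overlap over nearly their whole range, with medians of 1.45 with and 1.82 without the core.

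The ligands of the pathway were at the limit of detection. Of 15 interferon genes none passed the filter, and 12 had 0 reads in all libraries, Ifnb1 among them. A count of 0 allows up to 3 counts, or 0.187 to 0.210 CPM per library. The most reads for any of the other 3 were 4, for Ifnk in cell-treated library 1. Of 9 genes of receptors, kinases and Stat proteins, 5 were higher, 4 lower and 0 called, with a median of 0.13. The receptor chain Ifnar1 was at 47.4, 48.0 and 38.6 CPM in cell-treated libraries, against 42.9, 52.8 and 38.6 CPM in controls. Ifnar2 was at 16.9, 14.7 and 16.8 CPM in cell-treated libraries, against 17.9, 17.3 and 14.4 CPM in controls. Neither receptor chain had its highest value in cell-treated library 3, and the groups overlapped for both. The kinases with the smallest p in that list were Tyk2, with a log2 fold change of -0.45 ± 0.269, Jak1, with 0.30 ± 0.192, and Jak2, with 0.30 ± 0.196.

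Of 15 genes that lead to the induction of interferon, 5 were higher, 10 lower and 0 called, with a median of -0.10. Tlr7, an endosomal receptor for single-stranded RNA in microglia, was at 6.90, 13.2 and 48.6 CPM in cell-treated libraries, against 11.1, 12.4 and 5.18 CPM in controls, again with cell-treated library 3 apart from the rest. Tmem173, encoding STING, the adaptor for cytosolic DNA, had a log2 fold change of -0.41 ± 0.342, and Irf8, a myeloid factor, -0.21 ± 0.185. Of 13 negative regulators that passed the filter, out of 14, 9 were higher, 4 lower and 0 called, with a median of 0.084. Rnaseh2b, a subunit of the enzyme that removes RNA from DNA, had a log2 fold change of 0.49 ± 0.296, Socs1, a feedback inhibitor of Jak kinases, 0.83 ± 0.558, and Ptpn6, a phosphatase of immune cells, -0.37 ± 0.287. Of 49 further interferon-inducible genes that passed, out of 58, 33 were higher, 16 lower and 0 called, with a median of 0.14, or -0.13 without cell-treated library 3. Mov10, an RNA helicase, was lower with the smallest p in that list, at -0.43 ± 0.209 (unadjusted p = 0.0751). Ifi209, a sensor-family gene, was at 0.941, 1.01 and 5.16 CPM in cell-treated libraries, against 0.345, 1.40 and 0.384 CPM in controls, and Dtx3l, a ubiquitin ligase, had a log2 fold change of 0.59 ± 0.336. The chemokine Cxcl10 was at 1.69, 3.24 and 5.66 CPM in cell-treated libraries, against 2.14, 3.79 and 3.07 CPM in controls. Of all 58, 34 were highest in cell-treated library 3, against 35 of the 39 genes and 28.7% of all genes tested. In that library 10 of the 58 were lowest, against 2 of the 39.

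Total counts per library were 14221519 to 16696463. Cell-treated library 3 also stood apart over all genes, with a mean correlation of 0.947 with the other 5 across genes, which are not independent replicates, against 0.970 to 0.975 for the others. Several marker lists, here and in the next paragraph, also had their highest or lowest sum in it. The summed level of 13 wound and injury genes was 267, 365 and 2452 CPM in cell-treated libraries, against 893, 349 and 366 CPM in controls, and 12 of 13 were highest in cell-treated library 3. Spp1, osteopontin, was at 573 CPM there. The 8 astrocyte genes summed to 4995, 6588 and 1158 CPM in cell-treated libraries, against 6848, 7084 and 3974 CPM in controls, with the lowest sum in cell-treated library 3. The 8 oligodendrocyte genes summed to 4833, 7949 and 3017 CPM in cell-treated libraries, against 8625, 5967 and 5101 CPM in controls. The part of these in the interferon values was not tested.

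Markers of other cell types were read in the same way. The 10 homeostatic microglia genes summed to 715, 856 and 1036 CPM in cell-treated libraries, against 939, 961 and 665 CPM in controls. Cell-treated library 3 had the highest of these sums, with 4 of the 10 genes highest and 3 lowest there. Of all genes tested, 28.7% were highest in that library. Like those of endothelial genes, the microglia sums were lowest in cell-treated library 1 and control library 3. In those libraries 15 and 16 of the 39 interferon genes had their lowest value, against 12.8 and 16.7% of all genes tested. The part of either cell type in that was not tested. The 11 genes of plaque-associated microglia summed to 452, 656 and 638 CPM in cell-treated libraries, against 702, 655 and 646 CPM in controls. The sum in cell-treated library 3 lay within the range of the others, with 2 of the 11 genes highest and 4 lowest there. The 7 markers of macrophages of the brain's borders summed to 47.4, 36.6 and 75.8 CPM in cell-treated libraries, against 55.4, 68.3 and 25 CPM in controls. Markers of blood monocytes and neutrophils, 9 genes, summed to 4.14, 3.38 and 7.90 CPM in cell-treated libraries, against 2.90, 4.98 and 3.07 CPM in controls, and Ly6g had 0 reads in 5 libraries and 1 read in cell-treated library 3. T and NK cell genes, 9 in number, summed to 10.1, 17.1 and 5.72 CPM in cell-treated libraries, against 12.2, 14.5 and 17.3 CPM in controls, with Cd3e at 0 in cell-treated library 3. The 5 B cell genes summed to 40.0, 75.5 and 21.9 CPM in cell-treated libraries, against 74.4, 46.3 and 34.9 CPM in controls. Endothelial genes, 8 in number, summed to 412, 453 and 437 CPM in cell-treated libraries, against 439, 533 and 316 CPM in controls. Meningeal fibroblast genes, 8 in number, summed to 77.0, 45.4 and 79.0 CPM in cell-treated libraries, against 108, 108 and 33.1 CPM in controls, and 6 choroid plexus genes to 17.8, 9.93 and 27.2 CPM, against 13.7, 24.4 and 13.9 CPM in controls. The 5 erythroid genes summed to 105, 136 and 275 CPM in cell-treated libraries, against 49.4, 18.9 and 6.78 CPM in controls.

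**Figure D4:**
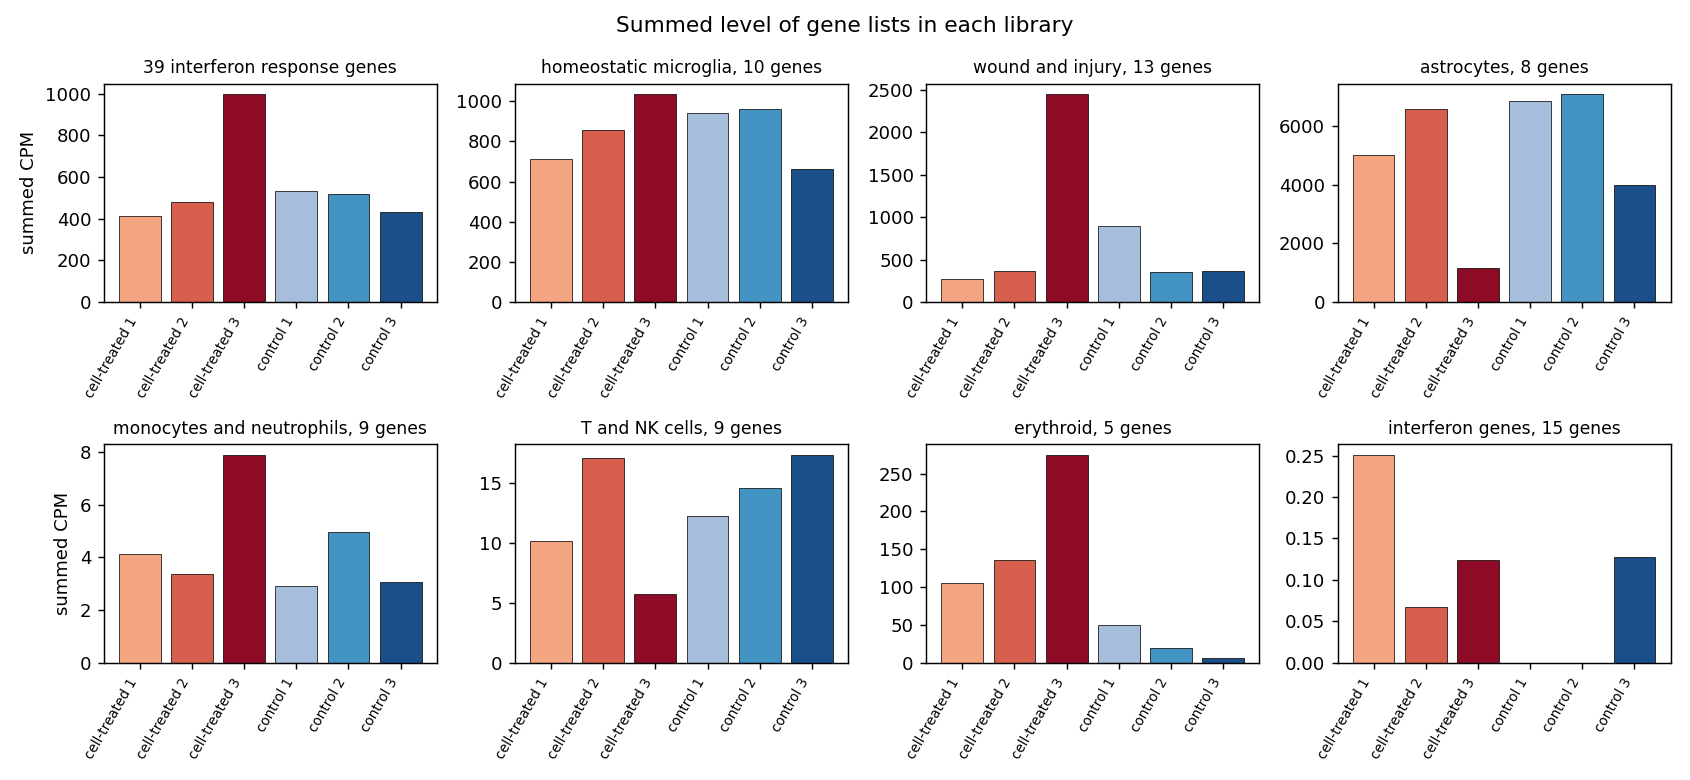
Summed CPM in each library for the interferon response genes, other genes of the pathway and marker lists, with cell-treated libraries left and controls right in every panel. Cell-treated library 3 is the tallest bar for the 39 response genes (999 CPM) and for wound and injury genes (2452 CPM). It is also the tallest for homeostatic microglia (1036 CPM), monocytes and neutrophils (7.90 CPM) and erythroid genes (275 CPM). It is the shortest for astrocyte genes (1158 CPM) and for T and NK cells (5.72 CPM).

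The tissue label, cortex, was checked on 8 genes of cortical excitatory neurons, which summed to 3628, 4905 and 3394 CPM in cell-treated libraries, against 5008, 5459 and 3173 CPM in controls. Genes of striatal projection neurons, 7 in number, were also present, at 240, 346 and 292 CPM in cell-treated libraries, against 561, 521 and 1362 CPM in controls, highest in control library 3. Each control sum lay above each cell-treated sum. All 7 genes were lower in cell-treated libraries, 4 of them with every cell-treated value below every control, against 4.30% of all genes tested. In edgeR 6 of the 7 had an unadjusted p under 0.05, against 2.0% of all genes, and 0 were called. The part of this in the interferon values was not tested. Control library 3 also had the lowest share of counts from mitochondrially encoded genes, 1.95%, against 4.49 to 8.78% in the other 5.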

How the data were processed

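Polyadenylated RNA of 5XFAD cortex was sequenced in 6 libraries of 1 batch label; per the labels' protocols cDNA was made with random hexamers and PCR, and a kit that marks strand is not mentioned. Reads of overlapping or antisense genes cannot be told apart, which for Ifitm2, Rtp4, Gbp7 and Ifi35 touches over 10% of the exonic bases, and transcript copies make the reads of Oas1a, Ifit3, Ifit3b and Ifitm2 uncertain. The deposited table holds whole-number read counts per gene. Per the submitters' processing notes HISAT2 2.0.5, featureCounts and DESeq2 are named, with no settings; for the build, nothing is stated in the sources used here. All 39 genes had the same start and end as in the GENCODE M21 annotation of GRCm38, and their coordinates are those of the deposited tables. Dividing each count by gene length and by the library's total gave the deposited FPKM values, apart from a factor of 0.953 to 1.03 per library set by the authors. Human and mouse reads were not told apart here.

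Counts were fitted over all genes with edgeR 4.0.16 in R 4.3.3: filterByExpr (minimum count 10, minimum total 15), TMM factors, a robust, two-sided quasi-likelihood F test, Benjamini-Hochberg adjustment over 17042 genes and a threshold of 0.05. CPM values use the TMM factors, fold changes (cell-treated over control) are log2, and their standard errors were derived from F. The alternatives were DESeq2 1.42.0, limma 3.58.1 (voom, and log2(FPKM + 1) and log2(FPKM + 0.1)), other scaling and filters, the replicate number as a block, and libraries left out. Replicate numbers were not taken as pairs in the main fit, and the values could not decide whether they pair the samples. The members and lists were chosen with earlier results of these data known. The values named are those of all sensors and transcription factors, of the 10 effectors with the smallest p and the 3 with the highest FPKM, of the 3 genes with the smallest p in each pathway list, and of Ifnb1, Ifnar1, Ifnar2 and Cxcl10; some genes that this rule takes are not reported here. Other genes were named after their values were seen. Promoter windows are from RefSeq, and 50-base words from GENCODE transcripts. Intervals for a count of 0 cover counting error only. Figures were drawn with matplotlib 3.10.9.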

Additional observations from a re-analysis of the deposited data

How the results depend on the processing

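In the 9 settings that kept all libraries (DESeq2, limma voom, limma on 2 FPKM scales, 2 other scalings, 2 other filters and the replicate block) 0 of the 39 genes were called (0 of 38 in DESeq2, which gave Irf7 no p), 35 were highest in cell-treated library 3, and their median log2 fold change ran from 0.18 to 0.40. With the replicate block it was 0.21. The deviations of same-numbered libraries correlated at -0.315, 0.0973 and 0.0683, against -0.218 to 0.178 for libraries of unlike number. These values gave no sign that the numbers pair the samples, but with 3 libraries a group they cannot exclude it. Over all genes DESeq2 called 5 higher and 4 lower, and edgeR without a low-count filter 1 higher. With library totals in place of TMM 1 gene of the 39 lay above every control, where 4.30% of all genes tested did so under TMM. Mx2, at -0.01, was at 0.011 in DESeq2 and 0.0028 with RLE factors.

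Leaving out libraries, each in turn or both number 3 libraries (the last chosen after seeing the data), gave a median of -0.27 to 0.63, from 8 to 37 higher genes, from 0 to 7 above every control, and 0 called; the lowest adjusted p of a member in any setting was 0.557. Without cell-treated library 3 alone, 22 genes changed from higher to lower. The sign held for 8 genes, Ddx58, Ifit2, Ifit3b, Isg15, Rsad2, Xaf1, Parp14 and Samd9l. For the other 31 the log2 fold change ran as follows: Ifih1 -0.15 to 0.72, Dhx58 -0.73 to 0.098, Zbp1 -0.75 to 1.10, Eif2ak2 -0.35 to 0.42, Oas1a -0.15 to 0.87, Oasl1 -0.91 to 0.996, Oasl2 -0.32 to 0.58, Irf1 -0.34 to 0.14, Irf7 -0.47 to 2.01, Irf9 -0.24 to 0.41, Stat2 -0.34 to 0.63, Sp100 -0.0050 to 0.43, Ifit1 -0.23 to 1.13, Ifit3 -0.56 to 0.17, Usp18 -0.054 to 0.45, Ifi27l2a -0.61 to 1.29, Ifi27 -0.25 to 0.028, Bst2 -0.80 to 0.77, Ifitm2 -1.09 to 0.66, Ifitm3 -0.65 to 0.86, Rtp4 -0.45 to 0.90, Mx1 -0.71 to 0.89, Mx2 -0.49 to 0.22, Gbp2 -0.23 to 0.32, Gbp3 -0.22 to 0.30, Gbp7 -0.30 to 0.50, Ifi44 -0.44 to 1.26, Ifi35 -0.44 to 0.21, Trim30a -0.17 to 0.37, Lgals3bp -0.61 to 0.87, Cmpk2 -0.016 to 0.43. Oasl1 was not tested without both libraries. With 3 libraries a group and 1 of them apart, a p that misses the threshold is no sign of equal groups, and low genes such as Oasl1 and Zbp1 rest on few reads.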

Other observations

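Genes outside the 39 that share the high value of cell-treated library 3, named after their values were seen, include the feedback inhibitor Socs3, at 3.70, 6.15 and 42.4 CPM in cell-treated libraries, against 11.2, 7.5 and 8.88 CPM in controls. Stat3, which drives Socs3 downstream of interleukin-6 type cytokines, was at 80.9, 87.3 and 197 CPM in cell-treated libraries, against 97.9, 81.8 and 90.9 CPM in controls. The DNA sensor-family gene Ifi204 was at 1.76, 2.77 and 15.7 CPM in cell-treated libraries, against 3.18, 2.80 and 2.30 CPM in controls. The chemokine Ccl5, which did not pass the filter on low counts, was at 0.627, 0.405 and 5.97 CPM in cell-treated libraries, against 0.483, 0.911 and 0.384 CPM in controls. In Socs3, Stat3 and Ifi204 the cell-treated libraries held both the highest and the lowest value of the 6, in Ccl5 the highest alone, and the groups overlapped in each. Tlr3, a receptor for double-stranded RNA that astrocytes express, was lowest in cell-treated library 3, at 20.4, 23.3 and 8.89 CPM in cell-treated libraries, against 22.0, 23.6 and 10.9 CPM in controls, and its next lowest value was in control library 3. The astrocyte genes summed lowest in the same 2 libraries. The part of cell composition in these values was not tested.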
